A study of Mus musculus with 8 samples.

Results

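The genes described here run the supply of energy from glucose: uptake, glycolysis, lactate handling, the switches set on that route, the response to low oxygen that drives it, the glycogen store and the phosphocreatine buffer. They were chosen by name, with earlier results of these data known, as a list of 38 mouse genes matched to Ensembl identifiers. All 38 were found among the 47729 genes of the neural stem cell (NSC) count table and among the 40562 genes of the astrocyte count table. RNA had been sequenced from mice that carry wild type (WT) dentin matrix protein 1, an extracellular matrix protein, and from homozygous knock-in mice (S89G-DMP1), in which the serine that holds its glycosaminoglycan chain was changed to glycine. Both genotypes were labelled strain C57BL/6 and 10 weeks of age. The NSCs came from the sub-ventricular zone and grew as floating neurospheres in DMEM/F12 with N2, with 3 libraries per genotype. The astrocytes came from cortex and grew in DMEM with fetal bovine serum, with 1 library per genotype. The knock-in was made in C57BL/6J embryonic stem cells and its selection cassette was removed by a cross with an FLP line, and the WT mice were not described as littermates. Nothing in the sources used here says whether the 3 libraries of a genotype came from separate mice or cultures, so p-values measure only the spread between these libraries, which may be technical.

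Glycolysis splits glucose into pyruvate. The upper steps, with hexokinase and phosphofructokinase, spend ATP to make triose phosphates, and the lower steps from triose phosphate isomerase to pyruvate kinase return it. Lactate dehydrogenase converts pyruvate and lactate into each other, and monocarboxylate carriers move lactate across the membrane. When oxygen is low, hypoxia-inducible factors raise many of these genes together with Vegfa and with Egln3, a prolyl hydroxylase that marks the factors for breakdown. In the brain, astrocytes hold most of the glycogen, which glycogen phosphorylase releases as glucose phosphate.

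The total count was between 2354615 and 2588130 in the NSC libraries, and was 14008670 in the WT and 13016924 in the S89G-DMP1 astrocyte library. The knock-in is a point change, so the Dmp1 count does not check the genotype: Dmp1 had 18, 21 and 16 counts in WT and 6, 3 and 5 in S89G-DMP1 NSCs, and 2 and 119 in the WT and S89G-DMP1 astrocyte libraries. The 2 astrocyte libraries differed widely in cell type markers. The astrocyte markers Aqp4 and Slc1a3 had 8 counts each in the library labelled WT and 4051 and 3877 in the S89G-DMP1 library. Gfap had 90 and 901. Among 14 astrocyte markers counted, the S89G-DMP1 library held 11 at 2-fold or more above WT and 2 at 2-fold or more below it, and their summed level was 192 in WT against 1603 in normalized CPM (counts scaled to a common library total). The 10 fibroblast markers summed to 7753 CPM in the WT and 2263 in the S89G-DMP1 library, with 6 of them 2-fold or more below WT and 1 above. The 10 neural progenitor markers summed to 845 and 2291. Of 8 mural cell markers counted, 7 lay below WT in the S89G-DMP1 library, 4 of them by 2-fold or more (Rgs5 had 2431 and 39 counts, Pdgfrb 11765 and 2276), while Acta2 had 9152 and 35539. Xist, the RNA of the inactive X chromosome, had 12172 counts in WT and 74 in S89G-DMP1, while Y-linked Ddx3y had 0 and 1277. Genotype, cell makeup and sex therefore cannot be told apart in the astrocyte values below. The NSC libraries expressed the progenitor genes Sox2 (315 to 375 CPM) and Nes (1935 to 2181 CPM) in both genotypes, and Xist (1086 to 1207 CPM) and Ddx3y (19.3 to 30.9 CPM) were present in every library.

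In S89G-DMP1 NSCs 4 of 7 genes of upper glycolysis fell, while none of the 7 tested genes of lower glycolysis passed the test; the lactate carrier Slc16a1 and the hypoxia response genes Vegfa and Egln3 rose. Of the 38 genes, 32 had enough counts to be tested with edgeR's quasi-likelihood test (Benjamini-Hochberg adjustment over all 11194 genes tested). The 3 that rose were Slc16a1, Vegfa and Egln3. The 6 that fell were Hk1, Gpi1, Pfkm, Pfkp, Pygm and Ckb. That is 9.38% of the tested members higher, against 7.08% of all genes tested, and 18.8% lower, against 8.76%. The members were chosen with earlier results of these data known, so these shares are no independent test. The median log2 fold change of the 32 was 0.03, beside 0.00 for all genes tested, with 18 fitted values above 0 and 14 below. The 23 members that did not pass ranged from -0.36 to 0.39 on the log2 scale, with standard errors of 0.05 to 0.37, so a change of this size in the less abundant members was not detectable at this depth. The 6 members not tested were Pgam2, Eno3, Slc16a3, Ankrd37, Pygl and Car9. Car9 had 0 counts in all 6 libraries, a result that allows up to 3 counts per library. DESeq2 called 4 of the 9 (Slc16a1, Gpi1, Pfkp and Ckb), and limma on the deposited TPM called 0 with 10 members at an unadjusted p under 0.05. The calls of Hk1, Pfkm and Vegfa were lost in 3, 5 and 4 of 6 edgeR fits with a library left out. Astrocyte markers also moved in these cultures: 7 of 12 tested rose and 1 fell, and their summed level was 1922 to 1976 CPM in WT and 2813 to 2915 in S89G-DMP1 libraries. Of these markers Gfap and Aqp4 stayed under 5 CPM in every NSC library, while others were abundant in both genotypes. Slc1a3 read 885 to 927 CPM in WT and 1023 to 1070 in S89G-DMP1, and Aldh1l1 read 299 to 312 and 627 to 631. Fibroblast genes were near absent: 7 of 10 markers had under 10 counts in every NSC library, with Col1a2, Dcn, Lum and Postn at 0. Of the remaining 3, Thy1, which other cell types also express, and Pdgfra fell and Fbln1 did not pass. The part of these genes in the results below was not tested, and in bulk samples fewer cells of a type and less RNA per cell cannot be told apart.

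**Figure D1:**
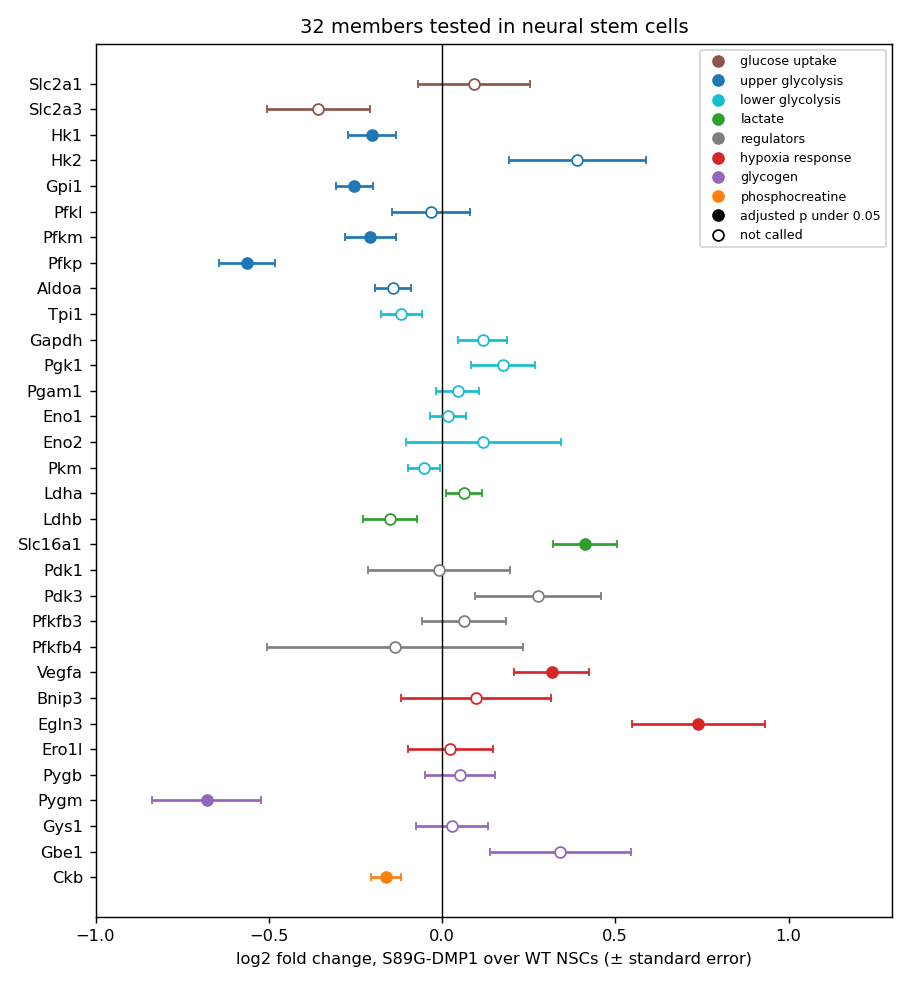
The log2 fold change of each of the 32 tested members between S89G-DMP1 and WT NSCs, with its standard error, 3 libraries per genotype, coloured by role; filled points passed an adjusted p of 0.05. Of the 7 upper glycolysis genes, 4 are filled and lie left of 0, and none of the 7 lower glycolysis genes is filled.

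Glucose enters brain cells through Slc2a1 (GLUT1), the carrier of the blood-brain barrier and astrocytes, and Slc2a3 (GLUT3), a high-affinity carrier known from neurons. Neither passed the test. Slc2a3 was at 28.7, 31.1 and 27.2 CPM in WT and 23.2, 21.8 and 22.9 in S89G-DMP1 NSCs, a log2 fold change of -0.36 ± 0.15 (SE, adjusted p = 0.0949, edgeR). The 2 groups of libraries did not overlap. Slc2a1 overlapped between groups, at 19.8 to 22.0 CPM in WT and 20.5 to 26.1 in S89G-DMP1.

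Of the 7 upper glycolysis genes, 6 had a fitted value below 0 and 4 passed the test, all lower. The clearest was Pfkp (GRCm38 chr13:6579768-6648777), the platelet-type subunit of phosphofructokinase, the committed step of glycolysis. Its level was 131, 134 and 127 CPM in WT and 85.9, 83.9 and 95.9 in S89G-DMP1 libraries, so every S89G-DMP1 library lay well below every WT library. It fell by 32.3%, a log2 fold change of -0.56 ± 0.08 (SE, adjusted p = 1.15e-07, edgeR). Gpi1 (chr7:34201330-34230336), which turns glucose 6-phosphate into fructose 6-phosphate, read 504, 510 and 514 CPM in WT and 429, 401 and 451 in S89G-DMP1. The groups did not overlap, and it fell by 16.1% (log2 fold change -0.25 ± 0.05, adjusted p = 3.41e-04, edgeR). Pfkm, the muscle-type subunit, read 139, 144 and 150 CPM in WT and 128, 123 and 124 in S89G-DMP1, without overlap. It fell by 13.4% (log2 fold change -0.21 ± 0.07, adjusted p = 0.0393, edgeR), a call that stood in 1 of 6 fits with a library left out, that without WT library 1. Hk1, the hexokinase of brain, read 209, 212 and 181 CPM in WT and 181, 182 and 161 in S89G-DMP1, so the lowest WT library lay among the S89G-DMP1 values. It fell by 13.1% (log2 fold change -0.20 ± 0.07, adjusted p = 0.0337, edgeR), a call lost without WT library 1 or 2 or S89G-DMP1 library 3. The other members of these steps did not pass. Hk2, the inducible hexokinase, spread from 11.4 to 17.5 CPM in WT and 14.6 to 25.7 in S89G-DMP1. Pfkl, the liver-type subunit, was at -0.03 ± 0.11 on the log2 scale. Aldoa, the aldolase of this step, was at -0.14 ± 0.05 (adjusted p = 0.0516, edgeR) and its groups did not overlap.

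The start region of Pfkp is shown because the gene had the smallest p of the 38. It runs from 250 bases before to 50 after the annotated start (RefSeq, GRCm38.p6), read in the gene's direction. Capitals mark ACGTG or GCGTG on either strand (CACGT or CACGC where it lies on the other strand), the core letters that hypoxia-inducible factors are known to bind. There were 4 matches in this window.
Pfkp, chr13:6648722-6649021, minus strand: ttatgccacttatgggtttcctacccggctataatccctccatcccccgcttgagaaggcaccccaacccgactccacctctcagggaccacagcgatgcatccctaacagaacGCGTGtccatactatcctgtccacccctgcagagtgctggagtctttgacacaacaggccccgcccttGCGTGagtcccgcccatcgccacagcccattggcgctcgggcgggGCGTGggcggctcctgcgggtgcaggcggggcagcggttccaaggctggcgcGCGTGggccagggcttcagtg

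None of the 7 tested lower glycolysis genes passed, and their median log2 fold change was 0.05. The 7 include Gapdh, whose counts have the limit given below. Eno1, the main enolase, read 713 to 815 CPM in WT and 743 to 813 in S89G-DMP1 NSCs, and Pkm, pyruvate kinase, read 1928 to 2092 and 1863 to 2001. Pgk1, phosphoglycerate kinase, was at 0.18 ± 0.09 and Tpi1, triose phosphate isomerase, at -0.12 ± 0.06 on the log2 scale. The Tpi1 groups did not overlap (adjusted p = 0.180, edgeR). The muscle forms Pgam2 and Eno3 stayed under 4 CPM in every library.

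Gapdh, the dehydrogenase of the lower steps and a common reference gene, could not be read on its own in NSCs. Gapdh had 2147 counts over the 6 NSC libraries, and its near-identical copies had 2664, which is 55.4% of the sum. A single processed pseudogene, Gm7336, matched the Gapdh coding sequence at 100% over 1017 bases and held 2347 of these counts. In the astrocyte table the copies held 0.39% of the sum and Gm7336 had 0 counts in both libraries. The same 90 coding bases of Gapdh and of the 4 copies with most NSC counts are printed to show how little separates them. Gm12416 ties with Gm16470 at 13 counts each, and only Gm12416 is printed. Positions are those of each gene in GENCODE M21 (GRCm38), and capitals mark a base that differs from Gapdh.
Gapdh, chr6:125161715-125166467, minus strand: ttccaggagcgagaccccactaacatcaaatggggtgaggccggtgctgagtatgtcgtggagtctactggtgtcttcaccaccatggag
Gm7336, chr7:51746647-51747878, plus strand: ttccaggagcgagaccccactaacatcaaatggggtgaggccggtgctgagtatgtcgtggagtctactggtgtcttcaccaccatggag
Gm5559, chr5:95861714-95862715, plus strand: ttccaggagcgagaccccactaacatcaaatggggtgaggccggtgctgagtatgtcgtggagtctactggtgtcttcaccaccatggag
Gm10327, chr10:33808497-33809498, minus strand: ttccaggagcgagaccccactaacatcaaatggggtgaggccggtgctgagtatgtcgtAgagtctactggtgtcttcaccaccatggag
Gm12416, chr4:84104895-84105902, plus strand: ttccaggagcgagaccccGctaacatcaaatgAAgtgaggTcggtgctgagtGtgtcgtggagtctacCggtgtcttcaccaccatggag
The first 2 copies were the same as Gapdh here, Gm10327 differed at 1 base and Gm12416 at 6, so a short read from this stretch can fit several loci. Gapdh alone was at 131 to 146 CPM in WT and 145 to 159 in S89G-DMP1 NSCs (log2 fold change 0.12 ± 0.07, adjusted p = 0.290, edgeR). With the copies added it was at 296 to 352 and 317 to 353 CPM (0.03 ± 0.06, adjusted p = 0.820, edgeR). For each of the other members, copies took at most 3.3% of the counts in either table. Pgk1 and Pgam1 also have copies at 100% identity, over 1250 and 762 bases. Whether reads that fit several loci were counted is not given, so these shares do not show how many reads were lost, for Gapdh or the others.

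**Figure D2:**
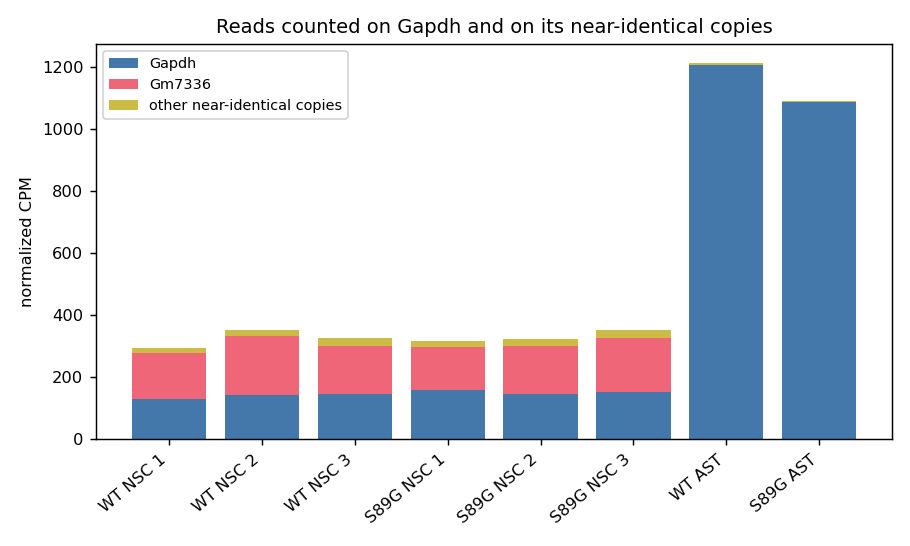
Normalized CPM counted on Gapdh, on the pseudogene Gm7336 and on the other near-identical copies, stacked, in each of the 8 libraries. Gm7336 holds 138 to 188 CPM in every NSC library and 0 in both astrocyte (AST) libraries, which come from a separately made table.

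Slc16a1 (MCT1, chr3:104638668-104658462), which carries lactate and other monocarboxylates across the membrane, rose in S89G-DMP1 NSCs. It read 64.5, 66.8 and 61.1 CPM in WT and 85.1, 82.6 and 88.2 in S89G-DMP1, with a wide gap between the groups. The increase was 33.0% (log2 fold change 0.41 ± 0.09, adjusted p = 7.16e-04, edgeR), and it passed in 6 of 6 fits with a library left out. Neither lactate dehydrogenase passed. Ldha, the form that favours lactate, was at 543 to 571 CPM in WT and 559 to 599 in S89G-DMP1, and Ldhb, the form that favours pyruvate, was at 122 to 129 and 102 to 121. The other lactate carrier, Slc16a3 (MCT4), had 13 counts over the 6 libraries and was not tested. Among the regulators, Pdk1 and Pdk3, kinases that hold back pyruvate dehydrogenase, and Pfkfb3 and Pfkfb4, which set the level of the phosphofructokinase activator, did not pass. Their fitted values ran from -0.14 (Pfkfb4) to 0.28 (Pdk3).

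The Slc16a1 start region held 5 matches to the core letters, of which a pair share the palindrome CACGTG read on both strands. It is shown because it is the member that rose with the smallest p.
Slc16a1, chr3:104638414-104638713, plus strand: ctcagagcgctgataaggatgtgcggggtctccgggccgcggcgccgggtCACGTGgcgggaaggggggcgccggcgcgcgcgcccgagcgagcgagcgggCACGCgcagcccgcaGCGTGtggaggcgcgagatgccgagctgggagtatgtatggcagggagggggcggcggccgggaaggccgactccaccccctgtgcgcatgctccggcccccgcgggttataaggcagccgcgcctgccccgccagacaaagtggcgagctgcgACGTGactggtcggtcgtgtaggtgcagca

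Of the 6 hypoxia response genes, 4 were tested, all with a fitted value above 0, and 2 rose. Egln3 (chr12:54178981-54203860) read 13.1, 11.7 and 11.2 CPM in WT and 16.4, 21.4 and 22.1 in S89G-DMP1, with no overlap. This was an increase of 67.0% on 28 to 55 counts per library (log2 fold change 0.74 ± 0.19, adjusted p = 0.00364, edgeR), the largest change upward among the 32, and it passed in 6 of 6 fits with a library left out. Vegfa (chr17:46016993-46032369), the growth factor of blood vessels, read 44.7, 51.3 and 53.9 CPM in WT and 66.1, 65.9 and 55.4 in S89G-DMP1. The groups met closely, with the highest WT and the lowest S89G-DMP1 library side by side. Its log2 fold change was 0.32 ± 0.11 (adjusted p = 0.0328, edgeR). The Vegfa call was lost without WT library 1 or 2 or S89G-DMP1 library 1 or 2, and on the deposited TPM its sign turned (-0.06). Bnip3, a mitophagy receptor, and Ero1l, an oxidase of the endoplasmic reticulum that forms disulfide bonds, were at 0.10 ± 0.22 and 0.02 ± 0.12. Car9, a carbonic anhydrase often used as a hypoxia marker, had no count and Ankrd37 had 14 over the 6 libraries.

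The start regions of Egln3 and Vegfa are printed side by side, as the 2 hypoxia response genes that rose. Egln3 held 1 core match and the Vegfa window 0, which says only that these letters are not in this window.
Egln3, chr12:54203825-54204124, minus strand: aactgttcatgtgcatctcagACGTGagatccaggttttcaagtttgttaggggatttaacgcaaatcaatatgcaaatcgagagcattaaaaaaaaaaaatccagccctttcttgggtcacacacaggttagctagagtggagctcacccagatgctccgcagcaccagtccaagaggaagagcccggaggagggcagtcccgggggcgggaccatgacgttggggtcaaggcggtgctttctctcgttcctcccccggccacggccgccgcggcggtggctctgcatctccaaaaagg
Vegfa, chr17:46032328-46032627, minus strand: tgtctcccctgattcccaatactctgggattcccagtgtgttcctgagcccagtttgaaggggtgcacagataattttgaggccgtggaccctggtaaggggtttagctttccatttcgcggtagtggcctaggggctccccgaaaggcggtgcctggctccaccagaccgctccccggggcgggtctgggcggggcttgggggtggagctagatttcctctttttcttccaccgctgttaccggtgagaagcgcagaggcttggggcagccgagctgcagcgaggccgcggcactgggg

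Among the 37 members with a start region in the RefSeq set used (none was found there for Slc2a3), 26 held at least 1 core match, or 70.3%. Of all 32851 windows of the same length, from 27025 genes, 43.8% held a match. The sets are unlike, since members enter with 1 window per gene and the background with all windows. Base makeup was not matched, and an enrichment was not tested. Of the 6 hypoxia response genes, 5 held a match. Matches were not particular to members that moved. Bnip3 held 5 and Ldha 7, and neither passed in NSCs, while Gpi1, Hk1 and Ckb fell and held 0 in the window read. Each CACGTG counts as 2 matches, and Bnip3 held 1 such palindrome and Ldha 2. Only the window nearest the annotated gene start was read. Hk1 and Ldha have 2 windows each, and the other was left out.

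Pygm (chr19:6384399-6398459), the muscle form of glycogen phosphorylase, which is also found in astrocytes, had the largest change downward among the 32. It read 32.4, 26.4 and 34.7 CPM in WT and 22.3, 19.3 and 16.8 in S89G-DMP1 NSCs, and the groups did not overlap. It fell by 37.5% (log2 fold change -0.68 ± 0.16, adjusted p = 9.35e-04, edgeR) and passed in 6 of 6 fits with a library left out. Pygb, the brain form, was at 59.5 to 63.6 CPM in WT and 57.8 to 67.0 in S89G-DMP1 (0.05 ± 0.10 on the log2 scale). Pygl, the liver form, had 8, 10 and 10 counts in WT and 3, 6 and 2 in S89G-DMP1, and was not tested. Glycogen synthase Gys1 was at 0.03 ± 0.10 and the branching enzyme Gbe1 at 0.34 ± 0.20, and neither passed. The start region of Pygm, printed for the size of its change in both cell types, held 2 core matches.
Pygm, chr19:6384158-6384457, plus strand: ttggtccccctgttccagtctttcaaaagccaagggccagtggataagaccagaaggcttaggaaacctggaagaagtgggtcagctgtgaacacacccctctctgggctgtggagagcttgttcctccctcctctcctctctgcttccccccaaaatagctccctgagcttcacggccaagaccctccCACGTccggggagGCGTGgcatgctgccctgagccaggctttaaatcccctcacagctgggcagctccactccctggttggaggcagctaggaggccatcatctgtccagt

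Ckb (chr12:111669361-111672338), brain creatine kinase, which keeps ATP level through phosphocreatine, had the highest level per length of the 38 in NSCs. It read 6392, 6982 and 6735 CPM in WT and 5879, 6045 and 6045 in S89G-DMP1. Every S89G-DMP1 library lay below every WT library. It fell by 10.6%, a small change with a small error (log2 fold change -0.16 ± 0.04, adjusted p = 0.00424, edgeR). Per kilobase of the length implied by the authors' astrocyte FPKM, its level was 4535 ± 200 CPM in WT and 4053 ± 65.1 in S89G-DMP1 (SD, n = 3), above Pkm at 832 ± 35.2 and Eno1 at 828 ± 57.4 in WT.

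**Figure D3:**
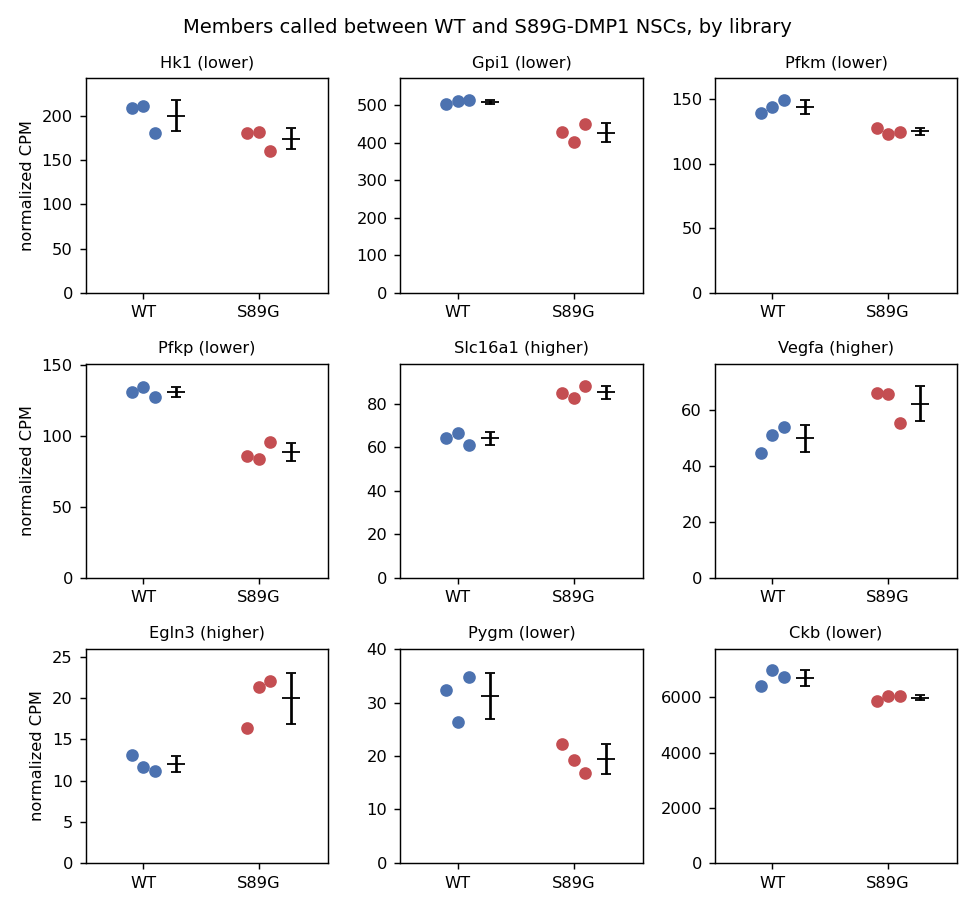
Normalized CPM of the 9 members that passed in NSCs, 1 point per library, with the mean and SD (n = 3) in black beside each group; every axis starts at 0. The groups are apart in 8 panels, and in Hk1 the lowest WT library lies among the S89G-DMP1 values. The panels were chosen by adjusted p on these same libraries, so the separation is no further support. Its share over all genes was not computed.

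The astrocyte libraries have no replicate, so a member is called apart when its levels differ at least 2-fold, with no test; the ranges given are 95% exact binomial intervals of the log2 ratio, which cover counting error only. Of the 37 members with at least 10 counts, 5 were higher in S89G-DMP1 (Slc2a3, Ldhb, Slc16a1, Egln3 and Ckb) and 5 were lower (Pdk3, Vegfa, Ero1l, Pygm and Gbe1). That is 13.5% in each direction, against 17.3% of all genes higher and 12.8% lower, so both shares are near the background. The median log2 ratio was 0.28, beside 0.01 for all 15680 genes. Scaling matters here: by library size alone the median of all genes moved to 0.30, and 11 members were at least 2-fold higher and 3 lower, so that 78.6% of the calls were higher in place of 50%. Gbe1 and Pdk3 then lay inside 2-fold.

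The largest difference upward was Slc2a3, with 58 counts in the WT and 724 in the S89G-DMP1 library, or 4.58 and 50.3 CPM (log2 ratio 3.42, interval 3.07 to 3.87). Slc2a1 stayed within 2-fold, at 36.1 and 56.7 CPM. No gene of upper or lower glycolysis was 2-fold apart under the main scaling. Pfkp came nearest, at 121 and 232 CPM (log2 ratio 0.94, 0.85 to 1.02). By library size alone Pfkp (log2 ratio 1.226) and Eno3 (1.045) were past 2-fold. Slc16a1 was at 13.3 and 71.5 CPM (169 and 1029 counts, log2 ratio 2.41, 2.19 to 2.67) and Ldhb at 88.2 and 270 CPM (1.61, 1.52 to 1.71). Ldha was within 2-fold, at 591 and 381 CPM. The hypoxia response genes went apart in both directions. Vegfa had 3352 and 936 counts, or 265 and 65.0 CPM (log2 ratio -2.02, -2.13 to -1.92), and Ero1l had 3106 and 787 (-2.16, -2.28 to -2.05). Egln3 was higher in S89G-DMP1, with 194 and 446 counts, right at the 2-fold line (1.01, 0.77 to 1.27), and Bnip3 and Car9 were within it. Pygm was the member furthest apart, with 494 counts in the WT and 18 in the S89G-DMP1 library, 39.0 and 1.25 CPM (log2 ratio -4.81, -5.73 to -4.29). Gbe1 (594 and 294 counts) and the X-linked Pdk3 (701 and 355 counts) were lower at -1.19 and -1.16. Ckb was at 932 and 2264 CPM (1.28, 1.25 to 1.31). Just inside 2-fold lay Pfkp, Slc16a3 (0.92), Pfkfb3 (0.92) and Pygb (0.81). Ankrd37 had 5 and 3 counts and was left out.

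**Figure D4:**
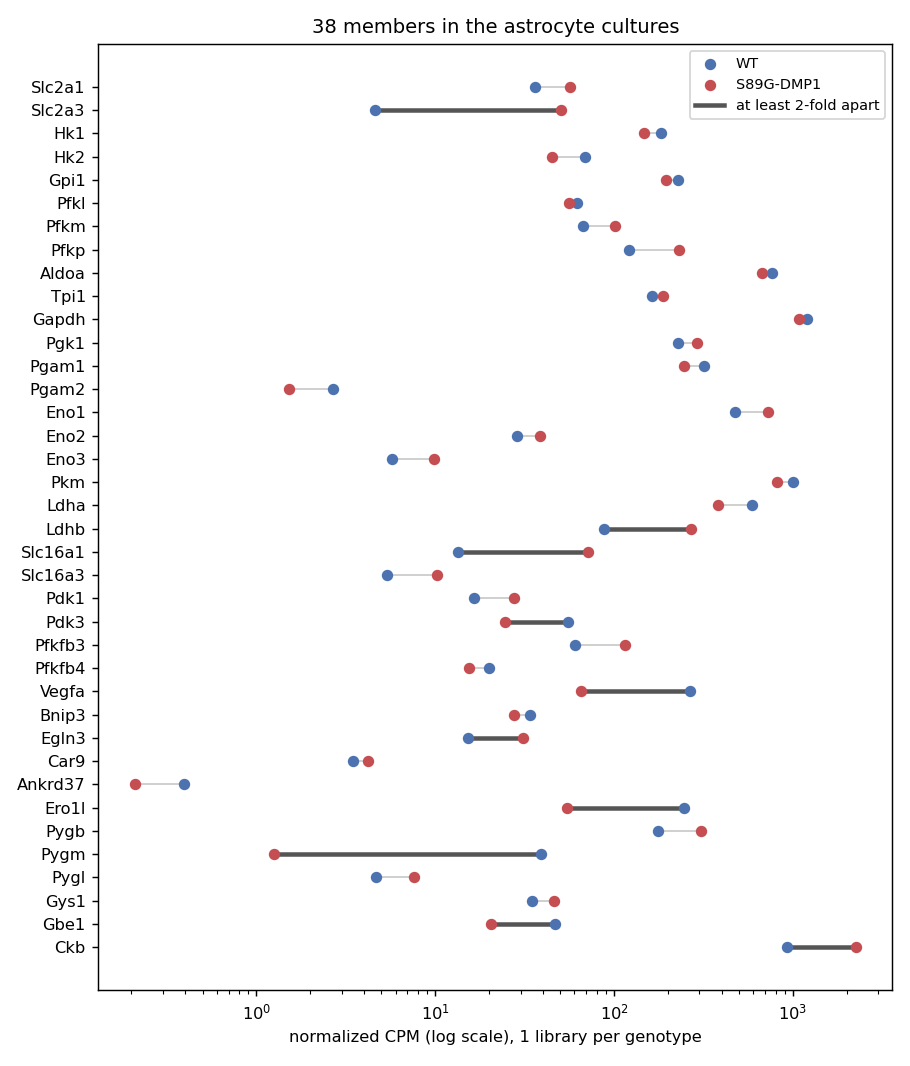
Normalized CPM of the 38 members in the WT and the S89G-DMP1 astrocyte library, on a log axis, 1 library each; thick lines join members at least 2-fold apart. Pygm, at 39.0 and 1.25 CPM, and Slc2a3, at 4.58 and 50.3 CPM, have the longest lines.

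Isozymes of the same step took unequal shares. Shares were computed from CPM per length, with the length implied by the authors' astrocyte FPKM, and carry no test; the NSC and astrocyte tables were made separately. In NSCs Pfkp held 46.3% ± 2.31 of the phosphofructokinase level in WT and 38.8% ± 1.88 in S89G-DMP1 (SD, n = 3), and in astrocytes 51.1% and 64.3%. With coding length in place of the implied length, Pfkp held 39.6% ± 1.88 and 33.0% ± 1.53 in NSCs and came after Pfkm, so the order of these subunits in NSCs depends on the length used. Pygm held 27.9% ± 3.09 of glycogen phosphorylase in WT NSCs, 19.4% ± 2.28 in S89G-DMP1 NSCs, 14.9% in the WT and 0.320% in the S89G-DMP1 astrocyte library. Pygb held most of the remainder in every library. Slc2a3 held 57.4% ± 3.03 of both glucose carriers in WT NSCs, 49.8% ± 2.91 in S89G-DMP1 NSCs, 11.1% in the WT and 46.7% in the S89G-DMP1 astrocyte library. Ldhb held 19.7% ± 0.440 and 17.5% ± 1.44 of lactate dehydrogenase in WT and S89G-DMP1 NSCs, and 14.1% and 43.9% in the astrocyte libraries. Hk1 held 96.2% ± 0.794 of both hexokinases in WT NSCs, and Eno1 held over 94% of the enolase level in each of the 8 libraries. With coding length Eno1 held 93.2% in the WT and 93.8% in the S89G-DMP1 astrocyte library.

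**Figure D5:**
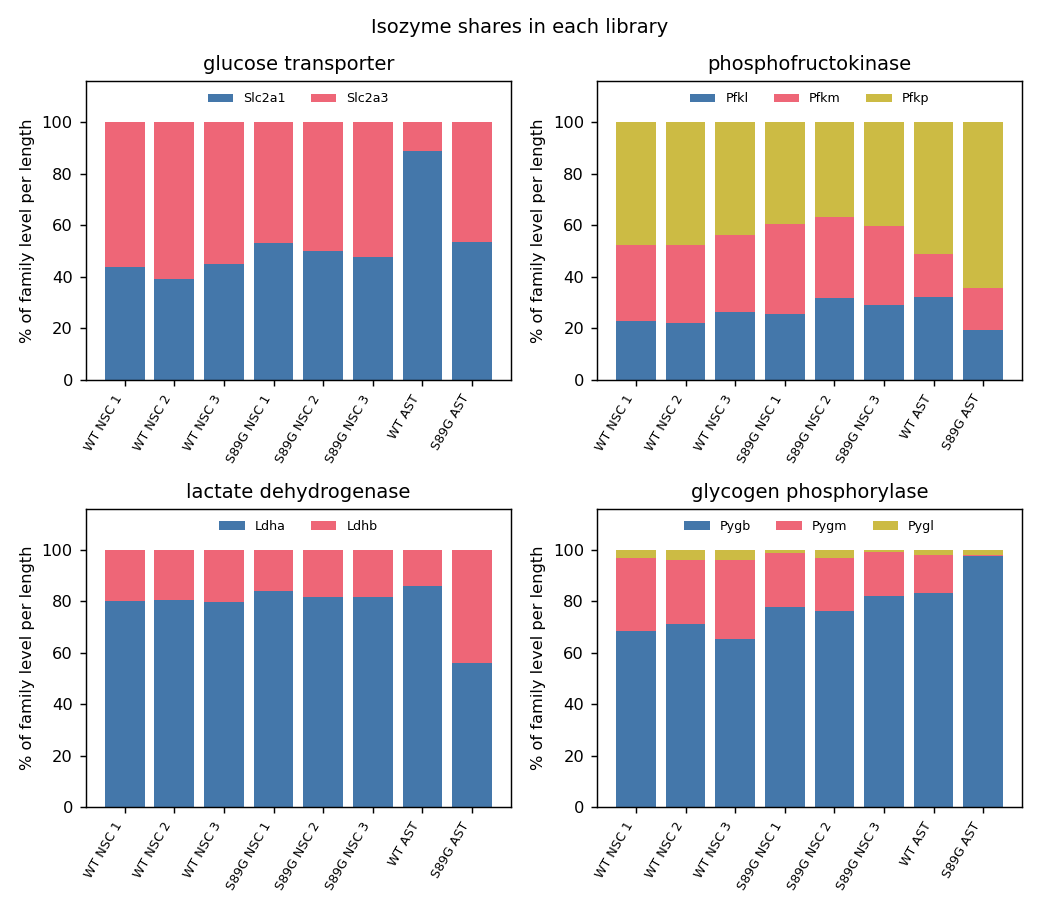
Share of each isozyme in the summed level per length of its family, for glucose transporters, phosphofructokinase, lactate dehydrogenase and glycogen phosphorylase, in each of the 6 NSC and 2 astrocyte (AST) libraries. The S89G-DMP1 astrocyte bar stands apart in Ldhb (43.9%), and Pygm all but disappears from it (0.320%).

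The same pathways hold further genes, listed from textbook knowledge of each route, also with earlier results of these data known. Of 121 such genes, 84 were tested in NSCs, where 5 rose (5.95%, against 7.08% of all genes tested) and 10 fell (11.9%, against 8.76%), and their median log2 fold change was -0.02. Of 28 wider hypoxia genes tested, 1 rose and 6 fell. The 4 largest increases were Rpia (log2 fold change 0.67 ± 0.16), an isomerase of the pentose phosphate route, Bhlhe40 (0.49 ± 0.09), a transcription factor raised by hypoxia, Ak4 (0.37 ± 0.12), a mitochondrial adenylate kinase, and Gatm (0.23 ± 0.06), which makes the precursor of creatine. The 4 largest decreases were Ckmt1 (-1.29 ± 0.30), mitochondrial creatine kinase, with 21, 24 and 24 counts in WT and 8, 10 and 9 in S89G-DMP1, Rora (-0.84 ± 0.15), a nuclear receptor, Ppp1r3c (-0.82 ± 0.17), which brings a phosphatase to glycogen, and Cited2 (-0.53 ± 0.16), which competes with hypoxia-inducible factors for a coactivator. The Ak4 call was lost in 4 of 6 fits with a library left out (without WT library 1 or 3 or S89G-DMP1 library 1 or 3) and the Cited2 call in 2 of 6 (without WT library 1 or S89G-DMP1 library 3). DESeq2 called Bhlhe40, Rora and Ppp1r3c of these 8. In astrocytes 106 were counted, with 14 at 2-fold or more above WT (13.2%, against 17.3% of all genes) and 20 below (18.9%, against 12.8%), and a median log2 ratio of -0.09. Aldoc, the aldolase of astrocytes and itself among the markers used above, was furthest higher, at 53 and 1838 counts (log2 ratio 4.88). Gatm had 50 and 435 counts, Anln 195 and 1527, and Slc2a4, the insulin-regulated glucose carrier, had 1 and 40. Among those lower were H6pd, which feeds NADPH to the endoplasmic reticulum (log2 ratio -3.10), P4ha2, a collagen prolyl hydroxylase (-2.77), and Slc2a10, a glucose carrier (-2.58).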

How the data were processed

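RNA of 6 NSC and 2 astrocyte libraries was sequenced by the authors, who removed adapter and low-quality reads. The deposited NSC table holds whole counts per gene and a TPM table beside it (HISAT2, StringTie, featureCounts and GRCm38 per the labels; settings, and whether strand was used, are not given in the sources used here). The deposited astrocyte table holds counts and FPKM (Bowtie2 2.0.6 and TopHat2 2.0.9 per the labels; the build is not given in the sources used here). The depth was 2354615 to 2588130 counts in NSCs and 13016924 and 14008670 in astrocytes.

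NSC counts were fitted with edgeR 4.0.16 (R 4.3.3; filterByExpr, TMM, glmQLFit and glmQLFTest, genotype only), with Benjamini-Hochberg adjustment over 11194 genes and a threshold of 0.05. Standard errors are the log2 fold change divided by the root of F. Astrocyte CPM were TMM-scaled, with 2 counts as prior, a minimum of 10 counts in the higher library and a 2-fold threshold. Copies were found with blastn (at least 95% identity over 150 bases) in GENCODE M21, and length per gene was taken from the astrocyte counts and FPKM, which gave the same length in both libraries. For 19 of 38 members this length is below the longest coding sequence. Alternatives were DESeq2 1.42.0, limma 3.58.1 on log2(TPM + 1) and log2(TPM + 0.1), other scalings and filters, a replicate block and each library left out. Members called or 2-fold apart were given by library, others as their partners, and of the wider lists the 4 largest called in each direction, except 1 gene that is not reported here. Members and lists were chosen with earlier results of these data known.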

Additional observations from a re-analysis of the deposited data

Results flagged for a closer look

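Of the members called in NSCs and at least 2-fold apart in astrocytes, Vegfa and Ckb went in opposite directions in the 2 cell types. Slc16a1, Egln3 and Pygm kept their direction. Of those within 2-fold in astrocytes, Pfkp (-0.56 in NSCs and 0.94 in astrocytes) and Pfkm (-0.21 and 0.59) also reversed, while Hk1 and Gpi1 did not. Vegfa had a log2 fold change of 0.317 in NSCs (every S89G-DMP1 library above every WT library) and a log2 ratio of -2.023 in the single pair of astrocyte libraries. The Vegfa call in NSCs was lost in 4 of 6 fits with a library left out and with DESeq2, and its sign turned on TPM. Ckb had -0.162 in NSCs (every S89G-DMP1 library below every WT library) and 1.281 in astrocytes. The difference between cell types was not tested, since the astrocytes have 1 library per genotype and another count table. The astrocyte libraries also differ in astrocyte markers (192 and 1603 CPM in sum) and fibroblast markers (7753 and 2263 CPM). The part of these markers in any of the genes named here was not tested.

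The pseudogene Gm7336, which is no member, had 2347 counts over the 6 NSC libraries, more than Gapdh itself with 2147, and 0 in both astrocyte libraries.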

How the results depend on the processing

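In NSCs the counts of 3 members higher and 6 lower stayed within 1.5 times under other scaling factors, library size alone, both filters on low counts and the addition of near-identical copies. With DESeq2 they were 1 and 3 (3 and 7 at an unadjusted p under 0.05), and with limma on log2(TPM + 1) or log2(TPM + 0.1) 0 and 0 (2 and 8 at an unadjusted p under 0.05). With limma, Vegfa turned from 0.317 to -0.062 and -0.064, and the cause was not tested. With a library left out, 2 to 3 members were higher and 4 to 5 lower. The wider list's 5 higher and 10 lower became 1 and 4 with DESeq2 and 0 and 0 with limma, although 5 or 6 higher and 8 lower had an unadjusted p under 0.05. With a library left out they were 3 to 5 and 9 to 10, with 3 higher without S89G-DMP1 library 3. Replicate numbers did not pair the libraries (correlations of -0.011 to 0.033 between same-numbered libraries, and not every library correlated best with its own number), and with the replicate number as a block 3 members were higher and 7 lower, and 5 and 10 of the wider list.

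In astrocytes the 5 members higher and 5 lower became 11 and 3 by library size alone, 9 and 3 on log2(FPKM + 1), 11 and 3 on log2(FPKM + 0.1), 15 and 8 at a threshold of 1.5-fold, and 2 and 3 at 4-fold. The wider list's 14 higher became 7 at 4-fold, and its 20 lower became 12 on log2(FPKM + 1), 31 at 1.5-fold and 8 at 4-fold. Of 5804 NSC genes averaging 100 counts or more, 81 were listed at a TPM of 0 in some library, none of them members. Isozyme shares per coding length, an alternative added after seeing the data like the adding of copies, kept the direction between genotypes given above for Pfkp, Pygm, Slc2a3 and Ldhb. The depth limits the less abundant NSC members, and a single library per genotype limits every astrocyte value.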
